A study of Mus musculus with 6 samples.

Results

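The 9 genes described here are early genes of the skeletal muscle lineage: the transcription factors Myod1, Myog, Myf5, Myf6, Pax3 and Pax7, the muscle filament gene Des, the muscle cadherin gene Cdh15 and the acetylcholine receptor gene Chrna1. They were taken by name from the 35976 genes of the count table, and all 9 were present. The set was chosen by its read counts in H3K9M against H3WT in these same 6 libraries, so the values are given as a description with no test. Cells came from mouse hind limb articular cartilage at embryonic day 18.5 (C57BL/6 x 129S4/SvJae), and the labels call them embryonic chondrocytes, the cells that make cartilage matrix. Every culture was grown for 16 population doublings on plastic. A transgenic histone H3.3 was induced in all of them by 2 µg/ml of doxycycline in the medium. The 3 H3K9M libraries (replicates 1, 3 and 5) carried the version with methionine in place of the lysine at residue 9, labelled as suppressing methylation at that residue. The 3 H3WT libraries (replicates 1, 2 and 4) carried the wild-type version under the same doxycycline. The labels do not give the promoter that drives the transgene, nor whether the replicates came from separate embryos, so any p-value measures the spread between these cultures only. Total counts ran from 15113675 to 19606082 reads a library.

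Skeletal muscle is specified by the basic helix-loop-helix factors Myf5, Myod1, Myog and Myf6, which pair with E proteins and bind the E-box, a short DNA motif written CANNTG. In the embryo Pax3 and Pax7 mark the progenitors, Myf5 and Myod1 commit cells to the lineage, Myog switches committed myoblasts to differentiation, and Myf6 acts mainly in maturing fibres. Forced expression of Myod1 is known to turn fibroblasts into muscle-like cells. Methylation of lysine 9 of histone H3 is a mark of silent chromatin, and genes of other lineages are among those it can cover.

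The genes lie apart in the mouse genome except for one pair (GRCm38, the assembly also called mm10; GENCODE M21 annotation). Myod1 is at chr7:46376474-46379099 on the plus strand, Myog at chr1:134289989-134292548 on the plus strand and Des at chr1:75360329-75368579 on the plus strand. Myf5 (chr10:107482908-107486134) and Myf6 (chr10:107492853-107494737) are neighbours on the minus strand. Pax3 is at chr1:78101267-78197134 and Pax7 at chr4:139737062-139833528, both on the minus strand. Cdh15 is at chr8:122847966-122867397 on the plus strand and Chrna1 at chr2:73563215-73580338 on the minus strand. Exons of Des overlap an opposite-strand gene, Gm15179, which was at 0 counts in all 6 libraries. A Chrna1 transcript matches transcripts of 37 other genes at 90% identity or more across stretches of at least 200 bases, so its count is less certain than those of the other members.

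The promoters of the members that were detected are shown because E-boxes are the sites through which myogenic factors act. RefSeq promoter sequence (GRCm38.p6) was found for 6 of the 9 genes (Myog, Myf5, Pax7, Des, Cdh15 and Chrna1). The 250 bases before the RefSeq start of 3 of the detected genes are printed 5′ to 3′ on the coding strand, with every match to CANNTG in capitals: Myog (chr1:134289754-134290003, plus strand), Des (chr1:75360042-75360291, plus strand) and Chrna1 (chr2:73580339-73580588, minus strand). The last 15 bases of the Myog window lie past the start that GENCODE gives.
Myog: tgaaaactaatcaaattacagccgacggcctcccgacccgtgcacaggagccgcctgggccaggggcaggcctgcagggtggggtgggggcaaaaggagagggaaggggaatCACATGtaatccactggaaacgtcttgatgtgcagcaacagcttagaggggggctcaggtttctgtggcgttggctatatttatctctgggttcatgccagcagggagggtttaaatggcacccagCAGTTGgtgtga
Des: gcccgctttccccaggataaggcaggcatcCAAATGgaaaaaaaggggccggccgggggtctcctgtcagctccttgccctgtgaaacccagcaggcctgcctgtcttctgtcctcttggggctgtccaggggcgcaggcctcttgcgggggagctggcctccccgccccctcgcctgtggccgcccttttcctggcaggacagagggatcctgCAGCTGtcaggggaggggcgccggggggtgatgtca
Chrna1: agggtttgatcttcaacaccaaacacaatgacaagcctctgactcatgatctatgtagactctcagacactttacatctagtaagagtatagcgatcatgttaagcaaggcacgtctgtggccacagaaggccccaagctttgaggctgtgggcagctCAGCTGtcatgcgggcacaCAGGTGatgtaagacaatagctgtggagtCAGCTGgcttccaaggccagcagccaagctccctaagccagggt
Myog and Des held 2 matches each. Chrna1 held 3, of which 2 had the form CAGCTG. At least 1 match (the motif reads the same on both strands) was present in 66.2% of 32851 RefSeq promoter windows of this length, at least 2 in 31.8% and at least 3 in 12.2%. The form CAGCTG, present in 13% of windows, occurred 2 times or more in 1.26%. The windows of Myf5 and Pax7 held 0 matches. The Cdh15 window held 3. The windows of Cdh15 and Pax7 lie inside those genes as GENCODE draws them and are not printed. No window of the 6 fully matched the 10-base MEF2 consensus on either strand, and 2.92% of all windows did. The pattern searched was YTAWWWWTAR (Y is C or T, W is A or T, R is A or G), with no mismatch allowed. The Myog window holds ctatatttat, which departs from this pattern only at its last base. A lack of full matches therefore does not show that a window lacks a MEF2 site. These matches describe the letters of each window and show no binding.

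Among the regulators, Myod1 was detected in all 3 H3K9M libraries and in 1 H3WT library. Its counts were 291, 1179 and 84 reads in H3K9M replicates 1, 3 and 5, and 0, 20 and 0 reads in H3WT replicates 1, 2 and 4. In counts per 1000000 reads (CPM, scaled between libraries by the TMM method) these were 19.5, 56.9 and 4.28 against 0, 1.04 and 0. The groups did not overlap, and replicate 3 stood highest. Levels averaged 26.9 ± 27.1 CPM with H3K9M and 0.346 ± 0.599 CPM with H3WT (SD, n = 3 each), a ratio of 77.8. That ratio was 34.5 without H3K9M replicate 3, and at least 157 without H3WT replicate 2, the only H3WT library with a Myod1 read. In RNA from a whole culture, fewer cells of a type and less RNA per cell cannot be told apart, so these values do not show how many cells held Myod1.

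Myog, the gene whose product starts terminal differentiation, had 60, 195 and 4 reads in H3K9M replicates 1, 3 and 5 and 0 reads in every H3WT library. The corresponding H3K9M levels were 4.02, 9.41 and 0.204 CPM (mean 4.54 ± 4.63, SD, n = 3). Replicate 5 was close to the floor of 3 reads a library used here, and its 4 reads have a 95% Poisson interval of 1.09 to 10.2 reads. Against that floor in the H3WT libraries (0.156 to 0.177 CPM), the H3K9M mean was at least 27.2-fold higher, or at least 12.7-fold without H3K9M replicate 3.

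The other 4 regulators were absent or nearly so. Myf5, Myf6 and Pax7 were at 0 reads in all 6 libraries, which allows up to 0.145 to 0.201 CPM by the same floor. Pax3 had 3 reads in all, 2 in H3K9M replicate 3 and 1 in H3K9M replicate 5, so no ratio is given. Myod1 and Myog were therefore detected in cultures where neither the Pax genes of muscle progenitors nor the neighbouring Myf5 and Myf6 rose above the floor.

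**Figure D1:**
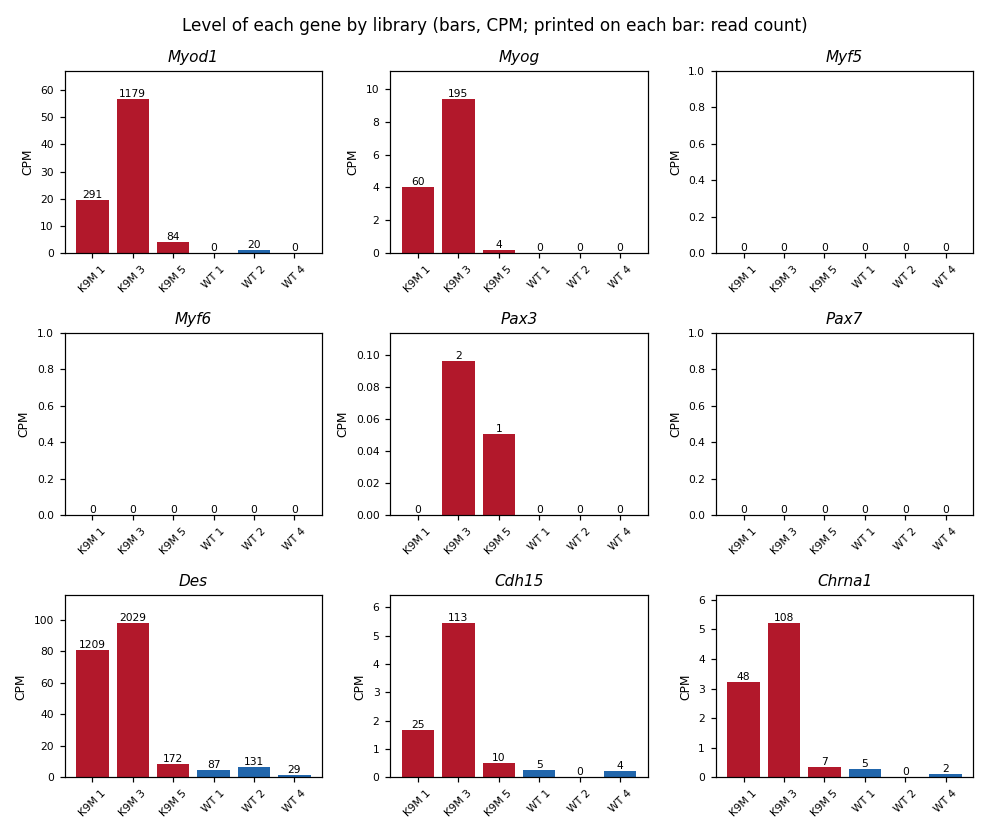
Level of each of the 9 genes in counts per 1000000 reads (CPM, vertical axis, own scale in each panel) in the 3 H3K9M libraries (red) and 3 H3WT libraries (blue), with the read count on each bar. Myod1, Myog, Des, Cdh15 and Chrna1 were highest in H3K9M replicate 3 and lowest, within H3K9M, in replicate 5, while Myf5, Myf6 and Pax7 were at 0 throughout.

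Des, which encodes the intermediate filament desmin and is also active in smooth muscle, had the most reads of the 9 genes. It had 1209, 2029 and 172 reads in H3K9M replicates 1, 3 and 5 and 87, 131 and 29 reads in H3WT replicates 1, 2 and 4. These are 80.9, 97.9 and 8.77 CPM against 4.88, 6.79 and 1.71 CPM. The groups did not overlap, but H3K9M replicate 5 was only 1.29 times the highest H3WT library. Means were 62.5 ± 47.3 CPM and 4.46 ± 2.57 CPM (SD, n = 3 each), a ratio of 14, which ran from 10.1 to 20.2 when 1 library was left out. Unlike Myod1 and Myog, Des was present in every H3WT library, including the 2 with 0 reads of Myod1.

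Cdh15 encodes M-cadherin, an adhesion protein of myoblasts and satellite cells. Its counts were 25, 113 and 10 reads in H3K9M replicates 1, 3 and 5 and 5, 0 and 4 reads in H3WT replicates 1, 2 and 4. The groups did not overlap, although the 10 reads of H3K9M replicate 5 (95% Poisson interval 4.8 to 18.4) and the 5 of H3WT replicate 1 (1.62 to 11.7) lay within each other's counting error. Cdh15 averaged 2.55 ± 2.58 CPM with H3K9M and 0.172 ± 0.151 CPM with H3WT (SD, n = 3 each), a ratio of 14.8. It was 6.4 without H3K9M replicate 3.

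Chrna1 encodes the alpha subunit of the muscle acetylcholine receptor, which receives the signal of the motor nerve. It had 48, 108 and 7 reads in H3K9M replicates 1, 3 and 5 and 5, 0 and 2 reads in H3WT replicates 1, 2 and 4. The lowest H3K9M library, at 0.357 CPM, was 1.27 times the highest H3WT library, at 0.28 CPM, a gap within counting error. Means were 2.93 ± 2.44 CPM and 0.133 ± 0.141 CPM (SD, n = 3 each), a ratio of 22.1. That ratio fell to 13.5 without H3K9M replicate 3 and was 49.6 without H3WT replicate 1.

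Each of these 5 genes had all 3 H3K9M values above all 3 H3WT values, and each had the same order of libraries, H3K9M replicate 3 first, then 1, then 5. Of the 19994 genes with a count, 8.55% had all H3K9M values above all H3WT values, and 1.95% had that order of libraries as well. The choice of the members rested on this contrast, so nothing is read from their count. Of the 9, Myod1 and Des passed the filter on low counts and were among the 13761 genes tested, and the other 7 had too few reads. Over all 13761 genes, 0 (0%) passed an adjusted p of 0.05 (edgeR quasi-likelihood test, Benjamini-Hochberg adjustment), 1677 had an unadjusted p under 0.05, DESeq2 called 390 and limma-voom 0.

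The size of the drop from H3K9M replicate 3 to replicate 5 differed between members. Levels in replicate 3 were 13.3 times those of replicate 5 for Myod1, 11.2 times for Des, 10.7 times for Cdh15 and 14.6 times for Chrna1. For Myog the ratio was 46.1, resting on 4 reads in replicate 5. Between replicates 3 and 1 the ratio was 2.92 for Myod1, 2.34 for Myog, 3.26 for Cdh15, 1.62 for Chrna1 and 1.21 for Des. Replicate 5 was thus the low H3K9M library for each of the 5 genes, and replicate 3 and replicate 1 lay closest together for Des.

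Levels of different genes were compared per kilobase of exon (CPM per kb). The length was that of all annotated exons of a gene merged, 3754 bases for Des and 1861 for Myod1. It can exceed the length of the transcript in use. In H3K9M replicate 3 these levels were 30.6 for Myod1, 26.1 for Des, 6.29 for Myog, 1.68 for Cdh15 and 1.19 for Chrna1. In replicate 1 Des came first at 21.6, ahead of Myod1 at 10.5, Myog at 2.69, Chrna1 at 0.732 and Cdh15 at 0.515. In replicate 5 Des (2.34) and Myod1 (2.30) were level, and Cdh15, Myog and Chrna1 had 0.157, 0.136 and 0.0814. By this measure Des and Myod1 were the 2 highest genes in each H3K9M library, but their order changed between libraries, as did that of Cdh15 and Chrna1. Des had more reads than Myod1 in every H3K9M library, so the order of these 2 genes depends on the lengths used. In the H3WT group Des was first, with a mean of 1.19 CPM per kb against 0.186 for Myod1.

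Within a library, reads of a gene can be set against those of Myod1 without scaling between libraries. Of the reads of Myog and Myod1 together, Myog took 17.1% in H3K9M replicate 1 (95% Wilson interval 13.5 to 21.4), 14.2% in replicate 3 (12.4 to 16.1) and 4.55% in replicate 5 (1.78 to 11.1). The interval of replicate 5 lay below those of the other 2. These intervals cover counting error only. In H3WT replicate 2 there were 0 Myog reads beside 20 of Myod1, which allows a share of up to 15%, so a Myog share like that of H3K9M replicate 3 was not detectable there.

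Cdh15 kept nearly the same share beside Myod1 in H3K9M replicates 1, 3 and 5, at 7.91%, 8.75% and 10.6%, with overlapping intervals. The share of Chrna1 was 14.2% in replicate 1 (10.8 to 18.3), above the 8.39% of replicate 3 (7 to 10). Des took 80.6% of the reads of Des and Myod1 in H3K9M replicate 1 (78.5 to 82.5), 63.2% in replicate 3 (61.6 to 64.9) and 67.2% in replicate 5 (61.2 to 72.6). It took 86.8% in H3WT replicate 2 (80.4 to 91.3). H3WT replicates 1 and 4 had no Myod1 read and give no informative share. The intervals of H3K9M replicates 3 and 5 overlapped, and both lay below that of replicate 1.

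**Figure D2:**
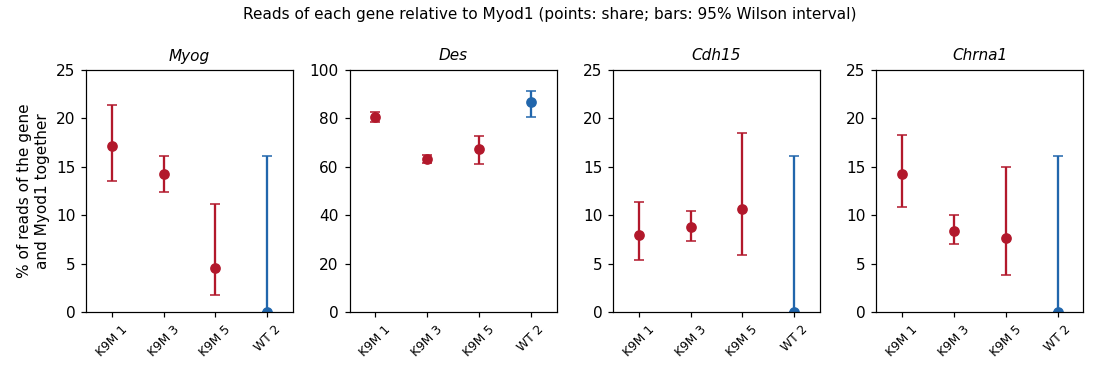
Share of reads (vertical axis, percent of the reads of the named gene and Myod1 together) in the 3 H3K9M libraries (red) and in H3WT replicate 2 (blue), the only H3WT library with a Myod1 read. Points are shares and bars their 95% Wilson intervals. Myog was at 4.55% in H3K9M replicate 5 against 17.1% and 14.2% in replicates 1 and 3, while Cdh15 stayed between 7.91% and 10.6% in H3K9M.

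The genes closest in pattern to Myod1 and Des were sought among all genes tested, by the root-mean-square distance between log2(CPM + 0.5) values centred on each gene's mean over the 6 libraries. Des was among the 5 genes nearest to Myod1 (distance 0.835), against a median distance of 2.53 over all genes tested. Next came Myl1 (0.841) and Myh3 (0.91), which encode a myosin light chain and the embryonic myosin heavy chain. The nearest was Prl2c3 (0.798), a proliferin gene with near-identical copies whose count is uncertain, and Acsbg1, an acyl-CoA synthetase gene, completed the 5 (1.15). For Des the 5 nearest were Myl1 (0.614), Myh3 (0.724), Acsbg1 (0.766), Myod1 (0.835) and Klra4 (0.937), a member of a multigene receptor family whose count is likewise uncertain. The median distance to Des was 2.06. Myod1 and Des were both chosen by their counts in these same 6 libraries, so their closeness to each other was partly set by that choice. The median is taken over all genes tested, whatever their contrast, and is no yardstick for that closeness. These distances describe 6 libraries of 2 genotypes and carry no test.

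**Figure D3:**
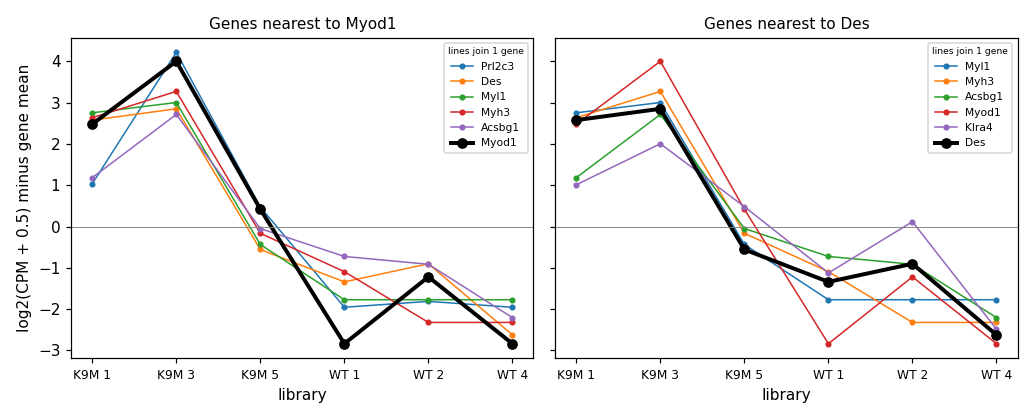
Values of log2(CPM + 0.5) minus each gene's own mean (vertical axis) in the 6 libraries (horizontal axis) for Myod1 and Des (black) and the 5 tested genes nearest to each (coloured). Lines join the values of 1 gene and imply no order of libraries. Myl1, Myh3 and Acsbg1 were among the 5 nearest to both.

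Genes of the sarcomere and of contraction, which act downstream of the myogenic factors, were examined next as a list of 40. At least 1 read was found for 39 of them. Of these 39, 14 (35.9%) had all H3K9M values above all H3WT values, beside 8.55% of all genes with a count, and 0 had the reverse. The count was 14 to 16 when 1 library other than H3K9M replicate 5 was left out, and 30 of 39 without that library, where the share among all genes was 14.2%. Some of the 14 separated the groups by only a few reads in H3K9M replicate 5. Mybph had 2 reads there and Atp2a1 had 3, neither above the floor of 3. Myh1 had 6 reads there, beside 5 in H3WT replicate 1. The order H3K9M replicate 3, 1, 5 and then every H3WT library was present in 9 of the 39. A total of 15 had 0 reads in every H3WT library, beside 2172 of the 19994 genes with a count. Some of these 15 had few reads in H3K9M as well, such as Trim63 with 7, all in replicate 3. The list was written with earlier results of these data known, so it is no independent evidence of a direction.

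In that list 18 genes passed the filter on low counts, with a median log2 difference of 1.92 beside -0.003 over all genes tested, and the same median when genes at 0 in H3WT were set to their bound. None passed an adjusted p of 0.05, while 7 of the 18 had an unadjusted p under 0.05, all higher in H3K9M (6.42% of all genes tested were higher at that p and 5.77% lower). A gene could pass that filter through the H3K9M libraries alone, as Myl1 did, so the median depends on which genes passed. It was 0.78 over the 6 genes that reached 10 counts in all libraries and 3.09 over all 39 genes with a count. When 1 library was left out, 19 to 31 genes passed and the median lay between 1.26 (without H3K9M replicate 3) and 4.55 (without H3WT replicate 1). It was 3.60 without H3WT replicate 2 and 3.09 without H3K9M replicate 5.

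Myh3 had 225, 491 and 34 reads in H3K9M replicates 1, 3 and 5 against 12, 0 and 0 in H3WT replicates 1, 2 and 4 (log2 difference 5.88, SE 1.51, adjusted p 0.249, edgeR). Myl1 had 165, 274 and 15 reads against 0 in every H3WT library, at least 50-fold higher (adjusted p 0.216, edgeR). Tnnt3, the fast skeletal troponin T gene, had 10.2, 10.8 and 5.96 CPM in H3K9M against 0.28, 2.07 and 1.65 CPM in H3WT (log2 difference 2.75, SE 0.66, adjusted p 0.216, edgeR). Tnnt2, the cardiac troponin T gene that embryonic skeletal muscle also uses, had 11.4, 9.17 and 7.34 CPM against 0.898, 5.75 and 1.24 CPM (log2 difference 1.82, SE 0.69, adjusted p 0.357, edgeR). For these 4 genes the groups did not overlap. Without H3WT replicate 2 Tnnt2 passed the test (log2 difference 3.13, adjusted p 0.031, edgeR).

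Of the 18 tested genes of the list, 16 had a fitted log2 difference above 0 and 2 below. Acta1 and Myom1 are named as the most abundant of these 18 genes whose groups overlapped, so their overlap was set by that choice. Acta1, the skeletal alpha-actin gene, had 32.7, 33.2 and 5.96 CPM in H3K9M replicates 1, 3 and 5 and 26.1, 3.27 and 24 CPM in H3WT replicates 1, 2 and 4. Myom1, which encodes an M-band protein, was highest in H3WT replicate 4 at 60 CPM and had 4.92 CPM in H3K9M replicate 3, the library with the most Myod1. The groups overlapped for both genes. Within H3K9M, Acta1 was lowest in replicate 5, as Myod1 was, but its levels in replicates 3 and 1 were nearly equal.

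**Figure D4:**
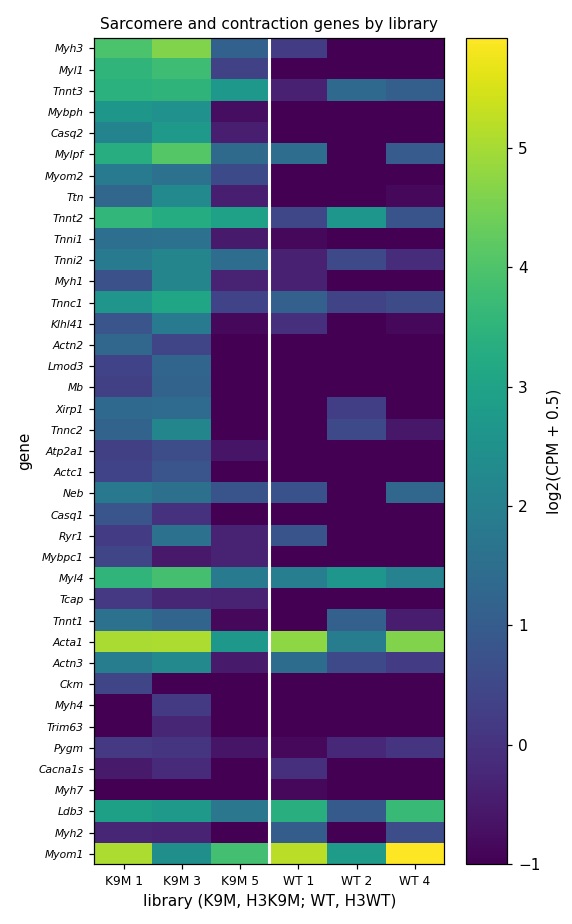
Level of the 39 detected sarcomere and contraction genes (rows) in the 6 libraries (columns) as log2(CPM + 0.5), from dark (0 reads) to yellow. Genes are sorted by the difference between group means. Upper rows such as Myh3, Myl1 and Tnnt3 were bright in H3K9M replicates 1 and 3, and lower rows such as Myom1 and Ldb3 were as bright or brighter in H3WT replicates 1 and 4.

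Genes of myoblast fusion and adhesion were mostly detected in both groups. The table held 13 such genes, of which 10 were tested, with a median log2 difference of -0.04, and 0 passed the test, 1 having an unadjusted p under 0.05 in each direction. Itga7, the laminin-binding integrin of muscle, had 31.9, 32.8 and 16.6 CPM in H3K9M against 11.9, 12.8 and 14.6 CPM in H3WT (log2 difference 1.05, SE 0.28, adjusted p 0.239, edgeR), and the groups did not overlap. Kirrel, an adhesion gene, had 277.8 ± 31.5 CPM against 353.7 ± 31.8 CPM (SD, n = 3 each; log2 difference -0.35, adjusted p 0.368, edgeR), with no overlap. The myoblast receptors Cdon and Neo1 were abundant in all 6 libraries, at 218.7 to 377.9 CPM and 222.7 to 304.8 CPM, and overlapped. Tmem8c, which encodes the fusion protein myomaker, had 29, 98 and 3 reads in H3K9M replicates 1, 3 and 5 and 0 reads in H3WT. Tmem8c was not tested and was chosen after its values were seen. Gm7325, another untested gene of this list, had 0, 9 and 1 reads in H3K9M replicates 1, 3 and 5. It had 2, 0 and 0 reads in H3WT replicates 1, 2 and 4, and its groups overlapped.

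The other genes of the acetylcholine receptor and of the neuromuscular junction formed a list of 10. All 10 listed genes had a read, 3 were tested (median log2 difference 0.48), and 0 passed. Chrnb1, the beta subunit gene, had 10.4, 14.2 and 5.35 CPM in the H3K9M libraries and 4.82, 4.87 and 5.53 CPM in those of H3WT (log2 difference 0.97, SE 0.38, adjusted p 0.375, edgeR), with H3K9M replicate 5 inside the H3WT range. Lrp4, an agrin receptor gene, was lower in each H3K9M library than in every H3WT library, at 13.4 ± 2.55 against 18.5 ± 2.22 CPM (SD, n = 3 each; log2 difference -0.47, adjusted p 0.444, edgeR). Dok7, an activator of the junction kinase, overlapped, with 0.469 to 2.75 CPM in H3K9M and 0.589 to 2.13 CPM in H3WT. The median of these 3 genes turned to -0.09 without H3K9M replicate 3, over 4 genes, and rose to 1.04 without H3WT replicate 4, over 5.

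Genes that act above the myogenic factors in the embryo overlapped between the groups. Of 14 listed, 11 had a read and 8 were tested, with a median log2 difference of 0.11, 0 past the test and 1 higher at an unadjusted p under 0.05. Eya4, a transcriptional coactivator gene, had 56.4 ± 12.7 CPM in H3K9M against 93.7 ± 47 CPM in H3WT (SD over 3 libraries each; log2 difference -0.73, SE 0.36, adjusted p 0.464, edgeR). Msc, Tcf21 and Pitx3 were at 0 in all 6 libraries.

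Partners and inhibitors of the myogenic factors had a median log2 difference of 0.02 over 18 tested genes, with 0 past the test and 2 higher and 1 lower at an unadjusted p under 0.05. The inhibitor gene Id4, whose product lacks a DNA-binding region, had 6.49, 3.52 and 3.42 CPM in H3K9M against 29, 9.54 and 25.2 CPM in H3WT (log2 difference -2.25, SE 0.47, adjusted p 0.197, edgeR). It passed without H3WT replicate 2 (log2 difference -2.60, adjusted p 0.0291, edgeR). Id3, of the same family, was level at 206.7 ± 26.6 and 203.2 ± 12.1 CPM (SD, n = 3 each). Bhlhe41, a repressor of the helix-loop-helix class, had 11.6, 13.7 and 12.1 CPM in H3K9M against 3.70, 5.96 and 6.36 CPM in H3WT (log2 difference 1.22, SE 0.29, adjusted p 0.216, edgeR). Mef2c, which works with the myogenic factors, was lower in every H3K9M library, at 10.8 ± 0.885 against 15.2 ± 3.24 CPM (log2 difference -0.50, adjusted p 0.444, edgeR). The nearest libraries were almost level, H3K9M replicate 1 at 11.8 CPM (176 reads) and H3WT replicate 1 at 12.0 CPM (214 reads). Cdkn1a, a cell-cycle inhibitor that accompanies differentiation, had 334.9, 516.1 and 229.2 CPM in H3K9M replicates 1, 3 and 5. The H3WT libraries had 243.6 to 276.6 CPM, so H3K9M replicates 1 and 3 lay above them and replicate 5 below.

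Satellite cell and myoblast surface genes gave a median of -0.08 over 7 tested genes, with 0 past the test and 1 higher at an unadjusted p under 0.05. Vcam1, an adhesion gene, had 39.3, 70.2 and 36.1 CPM in H3K9M against 32.4, 15.4 and 35.1 CPM in H3WT (adjusted p 0.43, edgeR), without overlap. Cav1, the caveolin gene, had 419.7 ± 102 against 286.2 ± 41.9 CPM (SD, n = 3 each; adjusted p 0.338, edgeR), and Sdc4, a heparan sulfate proteoglycan gene, 268.2 ± 44 against 284.4 ± 53 CPM, both with overlap. Calcr, a marker of quiescent satellite cells, was at 0 throughout.

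Over the 6 lists together 64 genes were tested and 0 passed an adjusted p of 0.05 with edgeR, while 15 had an unadjusted p under 0.05, 13 higher and 2 lower. Of all genes tested, 6.42% were higher and 5.77% lower at that p. The sarcomere list held 7 of the 13 higher genes. DESeq2 called 8 of the 64 (Myl1, Myom2, Tnnt3, Tnni2, Itga7, Met and Bhlhe41 higher, Id4 lower), beside 390 of all 13761 genes tested. With limma-voom both counts were 0. All 3 H3K9M values lay above all H3WT values in 9 of the 64, or 14.1%, beside 10.7% of all genes tested, and below them in 4, beside 8.69%. In the sarcomere list the former count was 6 of 18.

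**Figure D5:**
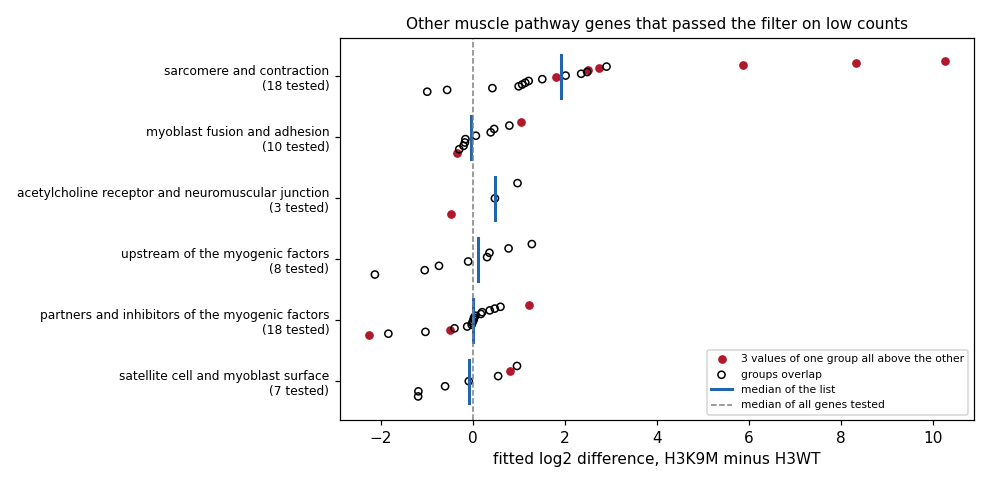
Fitted log2 difference between H3K9M and H3WT (horizontal axis) of the tested genes of 6 muscle lists (rows). Filled points had all 3 values of one group above the other, open points overlapped, blue bars are list medians and the dashed line is the median of all genes tested. The sarcomere list lay at a median of 1.92, and the other 5 medians ran from -0.08 to 0.48.

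Chondrocyte markers were present in every library: all 10 listed, among them Sox9, Col2a1 and Acan, passed the filter, and their summed level was 6166 to 9954 CPM in H3K9M and 6089 to 16968 CPM in H3WT. The fitted log2 difference was below 0 for 9 of the 10 (median log2 difference -0.61), with 0 past the adjusted test, 1 lower at an unadjusted p under 0.05, and overlapping groups for all 10. Of the 7 smooth muscle markers, all were tested, and their sum was lowest in H3K9M replicate 3 (893 to 4301 CPM in H3K9M and 1318 to 4833 CPM in H3WT). The next lowest sum was in H3WT replicate 2. The fitted log2 difference was below 0 for 6 of the 7 (median -0.65), with 0 past the adjusted test. Only Smtn did not overlap, being lower in every H3K9M library. The 4 tendon genes summed to 93.9 to 118.1 CPM in H3K9M and 57.5 to 85.4 CPM in H3WT. Of these, Scx was higher and Mkx lower in every H3K9M library than in every H3WT library, and Tnmd and Kera overlapped. The 7 macrophage and blood genes summed to 8.03 to 16.5 CPM against 3.84 to 6.28 CPM, with Ptprc, Adgre1 and Hbb-bs at 0. Cd68 gave 12.8 of the 16.5 CPM in H3K9M replicate 3, and the groups overlapped for each gene with a read. Sums of the 5 brown adipocyte genes were lower in H3K9M (41.7 to 46.5 against 55.8 to 64.5 CPM). Most of each sum came from Prdm16 and Pparg, while Ucp1 had 1 read and Cidea 12 reads over all 6 libraries. The part of these differences in the muscle gene values was not tested.

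For the remaining marker lists the sums overlapped or were near 0. The 8 Schwann cell and neural crest genes summed to 30.1 to 71.4 CPM in H3K9M and 20.3 to 86.6 CPM in H3WT, with Sox10 and Foxd3 at 0. The 5 endothelial genes stayed under 1 CPM in sum, with Cdh5 and Tie1 at 0. The 5 cardiac genes summed to 0.82 to 1.81 CPM against 0.471 to 0.841 CPM, with Nkx2-5 and Myh6 at 0.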

How the data were processed

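Polyadenylated RNA was sequenced from 6 cultures. The authors deposited whole-number read counts for each gene symbol, with no normalization. HISAT2, featureCounts, DESeq2 and the build mm10 are named, per the submitters' processing notes; versions, annotation and strand setting are not given in the sources used here. Columns were matched to samples by title, and 0 columns were left over. Replicates were distinct libraries: counts of each pair differed by 26.5 to 114 times sampling variance (chi-square per degree of freedom).

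The tests used edgeR 4.0.16 under R 4.3.3 (filterByExpr, TMM, robust quasi-likelihood fit on genotype, Benjamini-Hochberg adjustment over 13761 genes, threshold 0.05). DESeq2 1.42.0 and limma-voom (limma 3.58.1) were alternatives. CPM values are TMM-scaled. The standard error is the size of the log2 difference divided by the square root of F. A gene at or under 3 counts in a library was at the floor. Exon lengths, loci and similar transcripts (blastn) came from GENCODE M21, and promoters from RefSeq. The members and lists were chosen with earlier results of these data known. The text names all members and, from each list, genes past the threshold or otherwise up to 4 abundant genes whose groups did not overlap and 2 whose groups did, plus the 5 genes nearest Myod1 and Des. Myog did not pass the filter, so its nearest genes were not sought. One gene that the rule names is not reported here.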

Additional observations from a re-analysis of the deposited data

How the results depend on the processing

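No paired analysis was possible because the groups share only replicate number 1. The count of all genes past the threshold was 0 in the reported fit, 390 with the DESeq2 Wald test and 36 over all genes with reads, and 0 to 91 when 1 library was left out (91 without H3WT replicate 2, and 2 without H3K9M replicate 3). For the genes of the 6 muscle lists it was 0 in the reported fit, 8 with DESeq2 and 0 to 2 when 1 library was left out, the 2 being Tnnt2 and Id4 without H3WT replicate 2. The cause was not tested. Both counts were also 0 with limma-voom, with scaling by library size or by DESeq2's size factors, with a minimum of 10 counts a library, and at an adjusted p under 0.01. Scaling moved the ratios of the members little, from 77.8 to 79.1 for Myod1 and from at least 27.2 to at least 29.1 for Myog with library size alone. Leaving out each library in the count of separated sarcomere genes was chosen after the data were seen. Myod1 has no value with at least 10 counts in every library, because that filter removes it. Reads limit what can be said of Cdh15 and Chrna1 in H3K9M replicate 5 and in H3WT, where 10 or fewer reads were counted.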
